A study of Mus musculus with 24 samples.

Results

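The 45 genes described here are interferon-stimulated antiviral genes, taken from a fixed list of symbols, and all 45 were found among the 25160 genes of the count table. They cover 11 groups by role, from nucleic acid sensors and oligoadenylate synthases to the Isg15 system, nucleotide enzymes and membrane effectors. They were measured by RNA-seq in RAW 264.7 cells, a mouse macrophage line, that carried a doxycycline-inducible Nur77 construct (the Nur77 line) or a doxycycline-inducible GFP construct (the GFP line). Nur77, encoded by Nr4a1, is an orphan nuclear receptor. Cells of both lines received doxycycline at 50 ng/ml for 18 h and were then given lipopolysaccharide (LPS) at 500 ng/ml. The 6 groups of 4 libraries were the Nur77 line at 0, 1 and 5 h of LPS and the GFP line at 0, 1 and 5 h of LPS. Each construct was carried by 1 stable line, so a difference between the lines and an effect of the construct cannot be told apart. The labels do not state whether the 4 libraries of a group are separate cultures. The p-values therefore reflect only how far these libraries differ, and that spread may be technical.

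LPS binds Toll-like receptor 4, and the arm of its signalling that runs through the adaptors Ticam2 and Ticam1 activates the kinases Tbk1 and Ikbke and the factor Irf3, which switches on the interferon beta gene. Secreted interferon then acts on the receptor made of Ifnar1 and Ifnar2, and a complex that holds Stat2 and Irf9 binds interferon-stimulated response elements in the promoters of antiviral genes. Some of these genes can also be switched on by Irf3 directly, before interferon is made, and others follow with the secreted interferon.

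The letters of the response element were looked for in the promoters first, because they are what these genes are known to share. RefSeq promoter windows of build GRCm38.p6, from 250 bases before to 50 bases after a start site, were given for 33 of the 45 genes. The element was searched as GAAANNGAAA on both strands, with overlapping matches counted. It was found in the windows of 14 of the 33 genes (42.4%), against 3.99% of all 27025 genes with a window. The 14 genes were Oas1a, Oas3, Ifit1, Ifit3, Ddx58, Ifih1, Eif2ak2, Ifi203, Ifi205, Rsad2, Isg15, Ifitm3, Bst2 and Lgals9. The gamma-activated site, searched as TTCNNNGAA, was found for 27.3% of the 33 genes, against 9.55% of all genes, and the AP-1 site, searched as TGANTCA, for 21.2%, against 8.97%. The Nur77 response element, searched as AAAGGTCA, was found for 0 of the 33 genes, against 1.7% of all genes. At so low a share, 0 of 33 genes cannot tell this list from all genes. Motifs were searched independently, so that their matches may overlap. A match is a description of these windows only, and a window without one says nothing of binding elsewhere.

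The 150 bases before the start site of 6 genes are printed 5′ to 3′ along the gene's own strand, with matches to GAAANNGAAA or to its reverse complement in capitals. They were chosen among the genes with a match, to show genes that ended lower in the Nur77 line at 5 h (Rsad2, Isg15, Ifit1), higher (Oas1a, Oas3) or were not called there after a lower start (Lgals9).
Rsad2, chr12:26456453-26456602, strand -: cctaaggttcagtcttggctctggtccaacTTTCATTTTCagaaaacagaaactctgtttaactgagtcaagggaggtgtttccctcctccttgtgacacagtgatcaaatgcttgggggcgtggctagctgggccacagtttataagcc
Isg15, chr4:156200819-156200968, strand -: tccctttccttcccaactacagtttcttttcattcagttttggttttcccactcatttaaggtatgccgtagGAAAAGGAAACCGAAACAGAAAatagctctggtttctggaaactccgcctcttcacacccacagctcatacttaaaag
Ifit1, chr19:34640739-34640888, strand +: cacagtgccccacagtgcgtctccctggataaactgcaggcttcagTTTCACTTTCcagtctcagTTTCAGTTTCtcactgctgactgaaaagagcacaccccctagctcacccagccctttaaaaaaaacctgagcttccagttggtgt
Oas1a, chr5:120907526-120907675, strand -: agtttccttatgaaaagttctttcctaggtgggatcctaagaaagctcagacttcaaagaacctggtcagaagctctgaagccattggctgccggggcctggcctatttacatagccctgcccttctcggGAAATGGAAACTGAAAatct
Oas3, chr5:120777660-120777809, strand -: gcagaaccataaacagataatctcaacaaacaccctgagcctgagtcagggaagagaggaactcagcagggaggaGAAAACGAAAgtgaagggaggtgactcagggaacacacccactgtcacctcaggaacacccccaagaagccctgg
Lgals9, chr11:78984925-78985074, strand -: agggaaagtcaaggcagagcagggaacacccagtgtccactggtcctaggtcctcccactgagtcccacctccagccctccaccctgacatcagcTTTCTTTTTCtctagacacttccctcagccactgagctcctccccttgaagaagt
Isg15 had 3 overlapping matches beginning at -78, -72 and -66 from the start site, Oas1a had 2 overlapping matches at -20 and -14, and Ifit1 had 2 separate matches at -104 and -85. The single matches lay at -120 for Rsad2, -75 for Oas3 and -55 for Lgals9, which had a further match 15 bases after the start site. All 6 were picked from genes with a match, so the printed stretches do not compare the directions of difference between the lines. Genes whose windows held no match were also called in both directions at 5 h. Oasl2, Cmpk2, Samhd1, Herc6 and Dtx3l were lower in the Nur77 line, and Adar, Parp12, Sp100, Helz2, Phf11d and Ifi35 were higher.

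Library totals ran between 8134143 and 29275847 counts, and 12198 genes passed the filter on low counts. The level of Nr4a1 at 0 h was 2.74, 3.71, 3.27 and 3.37 CPM in the Nur77 line, against 3.12, 2.46, 3.2 and 3.34 CPM in the GFP line, with overlapping groups and no call (log2 fold change 0.10 ± 0.396, adjusted p = 0.868, edgeR). At 1 h it was 42.4, 9.29, 40 and 39.8 CPM in the Nur77 line, against 52, 63.2, 65 and 66.8 CPM in the GFP line, and it was lower in the Nur77 line (-0.91 ± 0.251, adjusted p = 0.00488, edgeR). Replicate 2 of the Nur77 line was the lowest there. At 5 h Nr4a1 was 4.51, 5.12, 5.2 and 4.74 CPM in the Nur77 line, against 3.13, 3.12, 3.09 and 2.08 CPM in the GFP line. Every library of the Nur77 line was higher at 5 h, without a call. It is not known from these sources whether reads of the construct were counted under Nr4a1, so the lines go by their labels throughout. Replicate 2 of the Nur77 line at 1 h stood apart: the lowest correlation within that group was 0.976, against 0.988 or more in the other 5 groups. Of the 9 macrophage markers, 8 passed the filter, and the summed level of the list was 4726.2 to 5846.5 CPM in the Nur77 line, against 9120.5 to 10303.3 CPM in the GFP line. Lyz2 gave the largest part of this sum, with means of 2780.5 CPM in the Nur77 line and 5646.1 CPM in the GFP line at 0 h. The markers did not move together at 0 h. Adgre1, Cd68, Lyz2 and Mpeg1 were lower in the Nur77 line and Fcgr1 was higher (0.22). Itgam (-0.03), Ptprc (0.16) and Spi1 (-0.01) were not called. The summed levels of lymphocyte and fibroblast markers stayed at or below 0.723 CPM, epithelial markers had 0 in every library, neutrophil markers reached 4.58 CPM and markers of plasmacytoid dendritic cells 14 CPM. In these bulk libraries, fewer cells that express a gene and less RNA per cell cannot be told apart.

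By 5 h of LPS nearly the whole list had risen in both lines. In the Nur77 line 44 of the 45 genes rose and 1 fell, against 32.5% of all tested genes higher and 34.2% lower. In the GFP line 44 rose and 1 fell, against 30.6% higher and 32% lower. The list was chosen with earlier results of these data known, so these shares are a description only. The median log2 fold change was 3.02 in the Nur77 line and 2.56 in the GFP line, where the medians of all genes were -0.03 and -0.02. Values ran from -0.41 to 6.73 in the Nur77 line and from -0.29 to 6.87 in the GFP line. Oasl2, Ifit3, Zbp1, Ifi205, Mx1 and Mx2 passed the filter on low counts only because of their later libraries, and among the other 39 genes 38 rose and 1 fell in each line, with medians of 2.19 and 2.17.

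**Figure D1:**
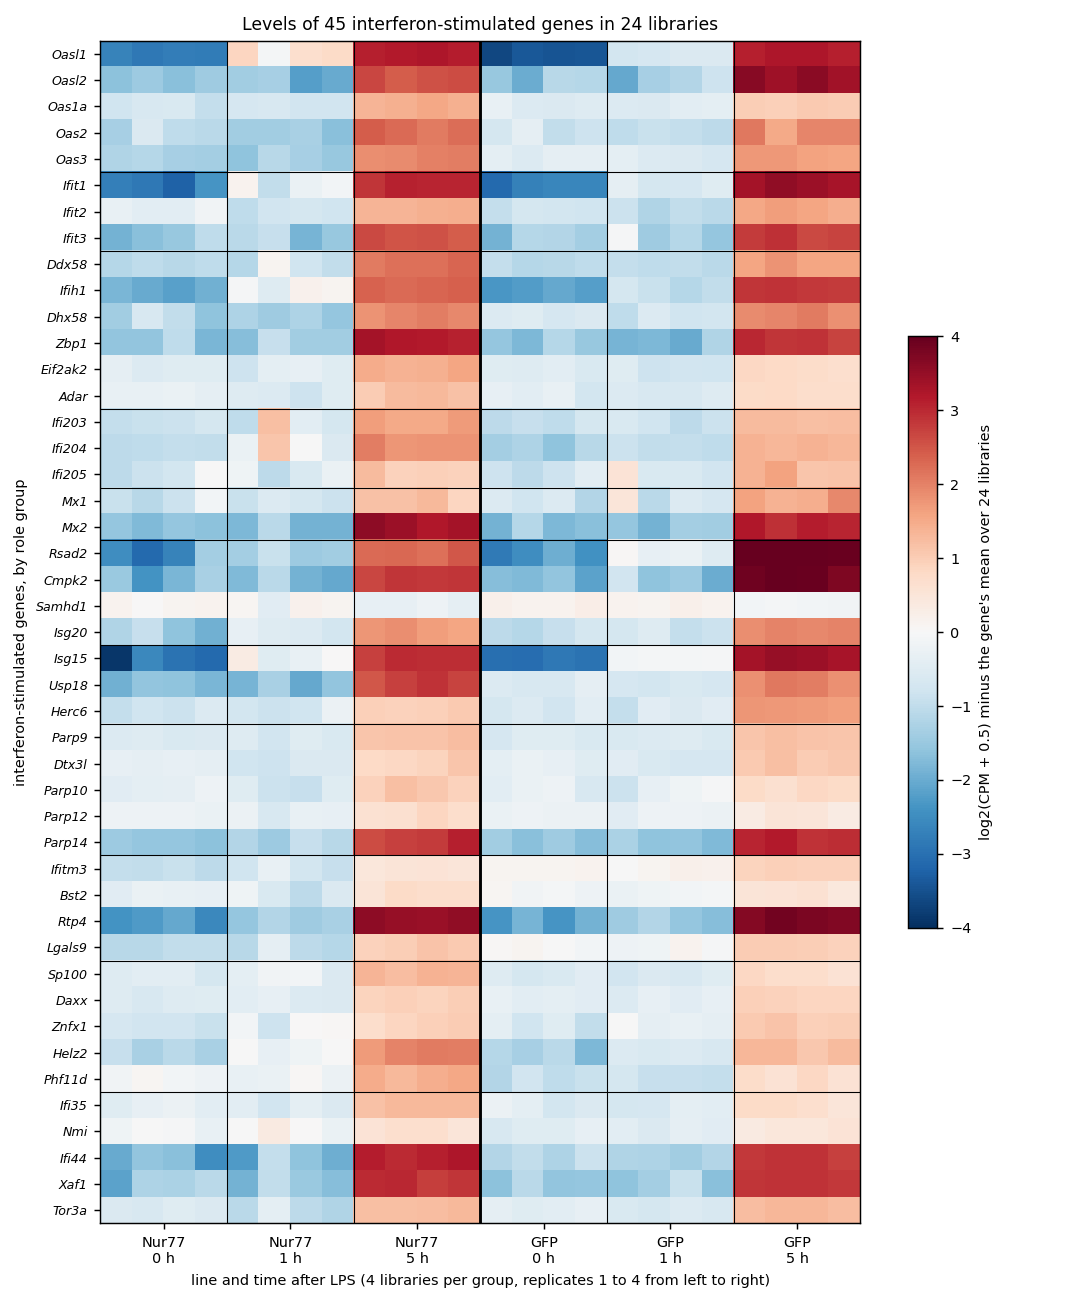
Each row is 1 of the 45 genes, grouped by role, and each column is 1 library, with the Nur77 line at 0, 1 and 5 h left of the GFP line at 0, 1 and 5 h; colour gives log2(CPM + 0.5) minus the gene's mean over all 24 libraries. The 5 h libraries of both lines are red in 44 rows, Samhd1 is the 1 row that is not, and replicate 2 of the Nur77 line at 1 h differs from its neighbours at Ifi203.

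Samhd1, which hydrolyses deoxynucleotides, was the gene that fell in both lines at 5 h. It had 96 to 106 CPM at 5 h, against 125 to 136 CPM at 0 h in the Nur77 line (log2 change -0.41 ± 0.0816, adjusted p = 8.59e-05, edgeR). In the GFP line it had 112 to 115 CPM at 5 h, against 135 to 147 CPM at 0 h (-0.29 ± 0.0809, adjusted p = 0.00286, edgeR). The libraries at 5 h lay below those at 0 h in each line.

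Per kilobase of transcript, Ifitm3 had the highest level of the list at every point. At 5 h its mean was 1122 CPM per kb in the Nur77 line and 1502 CPM per kb in the GFP line. Next at 5 h in the Nur77 line came Oasl1 (147), Isg15 (119) and Ifi203 (104 CPM per kb). In the GFP line the order was Isg15 (166), Oasl1 (148) and Ifih1 (119.8 CPM per kb). The lowest were Mx1 and Ifi205, at 0.822 and 0.983 CPM per kb in the Nur77 line and 1.21 and 1.3 CPM per kb in the GFP line. Before LPS, Ifitm3 was followed by Samhd1 and Bst2 in both lines, and the rows of Mx1, Mx2 and Ifi205 were all at or below 0.11 CPM per kb. Both Mx rows are transcripts that RefSeq lists as non-coding.

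Between the lines the list did not move as 1 block. At 0 h, 4 genes were higher in the Nur77 line and 8 lower, against 20.3% of all genes higher and 19.7% lower, with a median log2 fold change of -0.01. At 1 h, 11 were higher and 11 lower, against 26.4% and 24.8%, with a median of -0.09. At 5 h, 13 were higher and 11 lower, against 22% and 24.4%, with a median of 0.03. As shares of the list these were 8.89% higher and 17.8% lower at 0 h, 24.4% each way at 1 h, and 28.9% higher and 24.4% lower at 5 h. In the main fit, the share called higher at 0 h was below that of all genes. The shares at 1 h and 5 h were near those of all genes. The spread was estimated over all groups. The Nur77 line library that stood apart at 1 h thus also entered the tests at 0 and 5 h. A fit of the other 23 libraries gave 6 higher and 10 lower at 0 h, and 18 higher and 12 lower at 5 h. A fit of the compared groups alone gave 5 and 10 at 0 h, and 18 and 15 at 5 h. The shares of all genes in these fits are not given, so no such comparison was made for them. The medians of all genes were 0.02, 0.01 and 0.00 at 0, 1 and 5 h. What the list showed was a spread in both directions, and 9 genes (Ifit3, Zbp1, Ifi205, Mx1, Mx2, Parp9, Daxx, Znfx1 and Xaf1) passed the test at none of the 3 times.

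**Figure D2:**
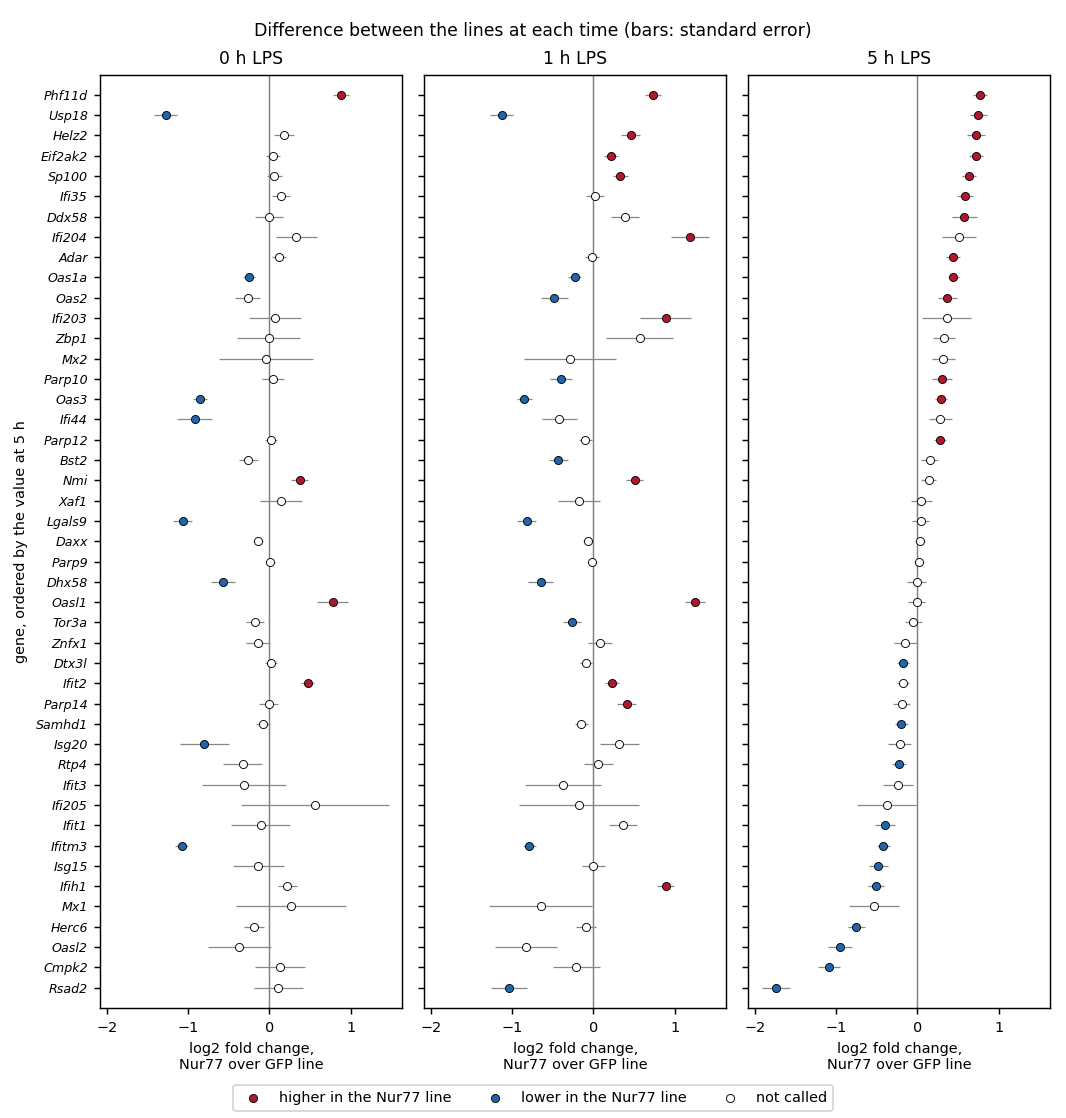
Points are log2 fold changes of the Nur77 line over the GFP line at 0, 1 and 5 h for the 45 genes, ordered by the value at 5 h, with standard errors as bars; filled points passed the test (adjusted p under 0.05, edgeR). Rsad2 is lowest at 5 h with -1.74 and Phf11d highest with 0.77, and Usp18, Oas3 and Oas1a lie left of 0 at 0 and 1 h and right of 0 at 5 h.

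The increase over the 5 h course was compared between the lines directly, as the log2 fold change of the Nur77 line minus that of the GFP line. It was larger in the Nur77 line for 10 genes and smaller for 6, against 2.75% of all genes larger and 5.12% smaller. The 10 were Usp18, Ifi44, Oas3, Lgals9, Oas1a, Eif2ak2, Ifitm3, Oas2, Sp100 and Helz2. The 6 were Rsad2, Cmpk2, Oasl1, Ifih1, Ifit2 and Herc6. Among the 10, Usp18, Ifi44, Oas3, Lgals9, Oas1a and Ifitm3 started from a lower level in the Nur77 line. Eif2ak2, Sp100, Helz2, Rsad2, Cmpk2 and Herc6 were not called between the lines at 0 h, while Oasl1 and Ifit2 were higher there in the Nur77 line.

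**Figure D3:**
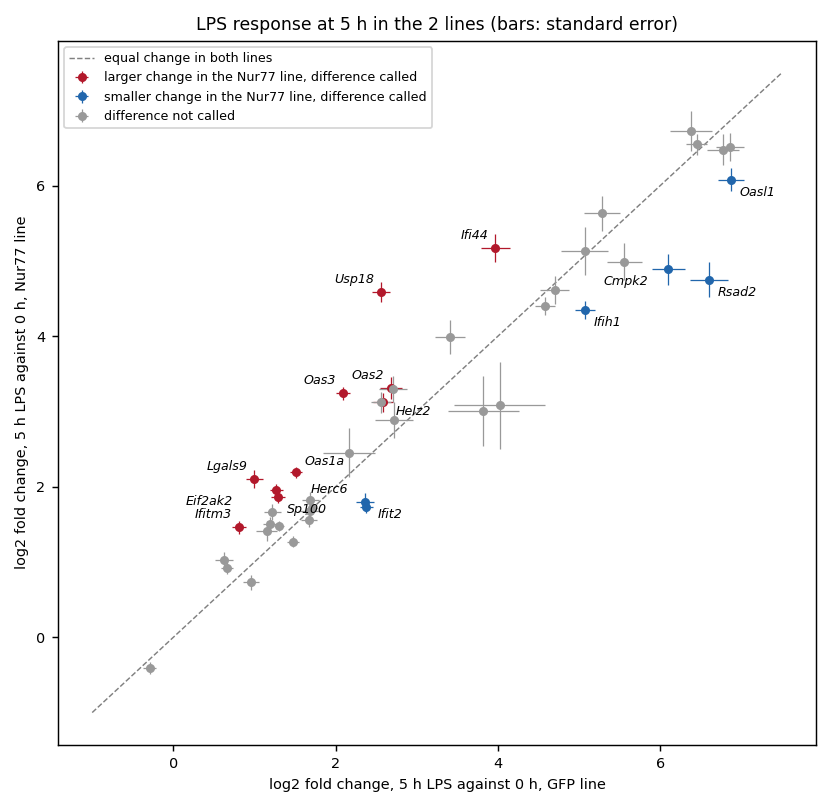
Each point is 1 of the 45 genes, with the log2 fold change at 5 h against 0 h of LPS in the GFP line on the x axis and in the Nur77 line on the y axis, standard errors as bars and a dashed line where both are equal. The 10 red genes lie above the line, with Usp18 farthest from it, and the 6 blue genes lie below it, with Rsad2 farthest from it.

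The largest difference between the lines at 5 h was in Rsad2, which encodes viperin, an enzyme that makes a chain-terminating nucleotide from CTP. At 5 h it had 82.7, 83.4, 78.3 and 95.3 CPM in the Nur77 line, against 276, 306, 288 and 264 CPM in the GFP line. Every library of the Nur77 line was below every library of the GFP line (log2 fold change -1.74 ± 0.172, adjusted p = 2.71e-08, edgeR). At 0 h the levels were 2.58, 1.51, 2.2 and 6.23 CPM in the Nur77 line, against 1.94, 2.6, 3.96 and 2.71 CPM in the GFP line, and the groups overlapped. Rsad2 was already lower at 1 h, with 6.2, 8.75, 5.75 and 6.1 CPM in the Nur77 line, against 17.2, 13.1, 13.9 and 11.5 CPM in the GFP line (-1.04 ± 0.223, adjusted p = 0.000554, edgeR). Its rise over 5 h was 4.75 ± 0.234 in the Nur77 line and 6.60 ± 0.236 in the GFP line, a difference of -1.85 ± 0.353 (adjusted p = 0.00159, edgeR).

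Cmpk2, a mitochondrial nucleotide kinase whose gene neighbours Rsad2, had the next largest difference. Its 5 h libraries held 41.8, 47.5, 46.2 and 47.6 CPM in the Nur77 line, against 96.6, 105, 100.5 and 87.1 CPM in the GFP line, with no overlap (-1.09 ± 0.139, adjusted p = 6.12e-07, edgeR). Its levels at 0 h were 0.756 to 2.2 CPM in the Nur77 line, against 0.993 to 1.73 CPM in the GFP line. The difference in its rise was -1.22 ± 0.339 (adjusted p = 0.0262, edgeR), and the adjusted p was 0.0737 without GFP line 0 h replicate 4, 0.0689 without Nur77 line 0 h replicate 1 and 0.129 without Nur77 line 0 h replicate 4. Rsad2 (chr12:26442743-26456452) and Cmpk2 (chr12:26469117-26479837) lie on chromosome 12 (GRCm38.p6), where genes as a whole were lower in the Nur77 line. The median log2 fold change of its 435 tested genes was -0.41, -0.45 and -0.45 at 0, 1 and 5 h, with 285, 279 and 299 of them lower. Neither gene was called lower at 0 h, where both had low levels, so a difference of the chromosome's size could go uncalled there. The median of the chromosome's genes for the difference in the rise over 5 h was -0.04. The part of the chromosome's lower level in their values at 5 h was not tested.

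The other nucleotide and RNA enzymes moved less. Samhd1 had 96 to 106 CPM in the Nur77 line, against 112 to 115 CPM in the GFP line at 5 h (-0.20 ± 0.0815, adjusted p = 0.0491, edgeR), and the call was lost in 7 of the 8 omissions of 1 library, with an adjusted p of up to 0.109. Isg20, an exonuclease of single-stranded RNA, had 0.645, 0.894, 0.357 and 0.195 CPM in the Nur77 line, against 0.76, 0.684, 0.884 and 1.13 CPM in the GFP line at 0 h (-0.80 ± 0.297, adjusted p = 0.0344, edgeR), with overlapping groups and a call lost in 4 of 8 omissions, with an adjusted p of up to 0.177. At 5 h Isg20 was not called.

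**Figure D4:**
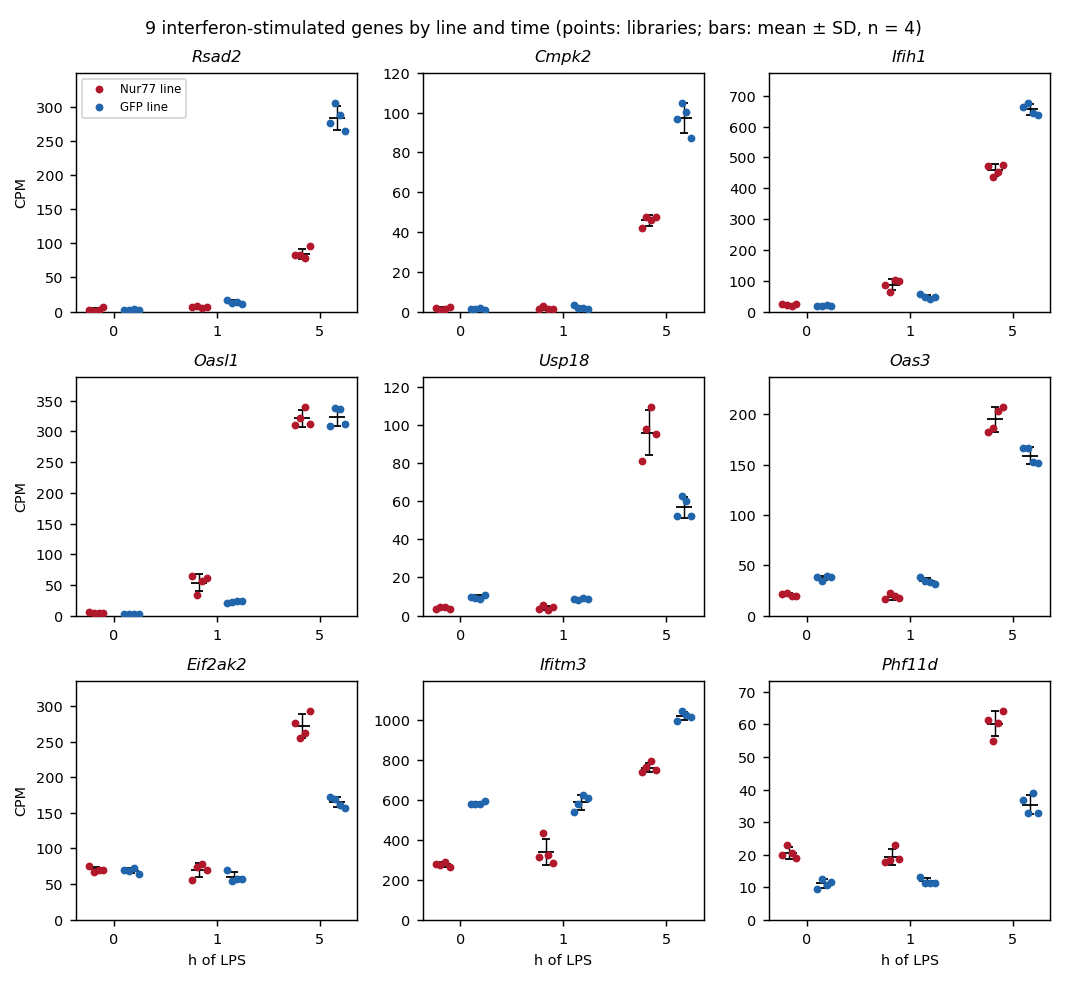
Points are libraries and bars are means ± SD (n = 4) of CPM at 0, 1 and 5 h of LPS, with the Nur77 line left of the GFP line at each time, for 9 genes on linear axes that start at 0. Rsad2, Cmpk2, Ifih1 and Ifitm3 are lower in the Nur77 line at 5 h, Usp18, Oas3, Eif2ak2 and Phf11d are higher, and Oasl1 is higher at 0 and 1 h and overlaps at 5 h.

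In the Isg15 system the members went in opposite directions at 5 h. Usp18, the protease that removes Isg15 from proteins and also restrains signalling at Ifnar2, was higher, while Isg15 itself, a ubiquitin-like modifier, and Herc6, its ligase in mouse, were lower. Usp18 had 81.2, 97.7, 109.6 and 95 CPM in the Nur77 line, against 52.3, 62.8, 60 and 52 CPM in the GFP line at 5 h (0.75 ± 0.102, adjusted p = 1.16e-06, edgeR). At 0 h the order was the reverse, with 3.38, 4.4, 4.34 and 3.63 CPM in the Nur77 line, against 9.63, 8.96, 8.88 and 11 CPM in the GFP line (-1.28 ± 0.144, adjusted p = 7.69e-08, edgeR). The groups did not overlap at either time. Usp18 rose by 4.59 ± 0.132 in the Nur77 line and 2.56 ± 0.116 in the GFP line, and the difference of 2.03 ± 0.176 was the highest of the list (adjusted p = 1.38e-08, edgeR).

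Herc6 had 31.9, 30.6, 31.6 and 33.4 CPM in the Nur77 line, against 55.5, 54.7, 53 and 51.6 CPM in the GFP line at 5 h, again without overlap (-0.75 ± 0.106, adjusted p = 1.92e-06, edgeR), and was not called at 0 h (-0.19 ± 0.126). The difference in its rise, -0.56 ± 0.164 (adjusted p = 0.0345, edgeR), lost its call in 11 of 16 omissions, with an adjusted p of up to 0.121. Isg15 had 80.2 to 94.4 CPM in the Nur77 line, against 118 to 135 CPM in the GFP line at 5 h (-0.48 ± 0.114, adjusted p = 0.00112, edgeR). At 1 h, when it was not called, its means were 11 ± 2.91 CPM in the Nur77 line and 11 ± 0.225 CPM in the GFP line (SD, n = 4 each).

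Of the 5 oligoadenylate synthase family genes, 3 were higher in the Nur77 line at 5 h and 1 lower, against 22% of all genes higher and 24.4% lower. Oas1a, Oas2 and Oas3 encode synthases of the short oligoadenylates that activate RNase L, and their genes lie on chromosome 5. Oas1a had 87.7, 90.9, 99.5 and 91.3 CPM in the Nur77 line, against 68, 66.6, 70.1 and 68.4 CPM in the GFP line at 5 h (0.44 ± 0.069, adjusted p = 1.11e-05, edgeR). Oas3 had 183 to 208 CPM in the Nur77 line, against 151 to 166 CPM in the GFP line at 5 h (0.29 ± 0.0782, adjusted p = 0.00323, edgeR). In both genes every library of the Nur77 line was above every library of the GFP line. Before LPS they were lower: Oas3 had 21.6, 22.3, 19.5 and 19.1 CPM in the Nur77 line, against 38.1, 33.9, 39 and 38.6 CPM in the GFP line (-0.86 ± 0.0874, adjusted p = 1.39e-08, edgeR) and Oas1a had 17.3 to 22.2 CPM in the Nur77 line, against 22.3 to 27.2 CPM in the GFP line (-0.25 ± 0.0767, adjusted p = 0.0109, edgeR). The Oas1a call at 0 h was lost without GFP line 0 h replicate 1, with an adjusted p of 0.0546.

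Oas3 rose by 3.24 ± 0.0889 in the Nur77 line and 2.09 ± 0.0832 in the GFP line, and Oas1a by 2.19 ± 0.0751 in the Nur77 line and 1.51 ± 0.073 in the GFP line. The differences were 1.16 ± 0.117 (adjusted p = 1.84e-07) and 0.69 ± 0.103 (adjusted p = 7.3e-05, both edgeR). Oas2, which was not called at 0 h and was called lower in the Nur77 line at 1 h, was called higher there at 5 h. It had 69.4 to 88.3 CPM in the Nur77 line, against 47.2 to 70.9 CPM in the GFP line at 5 h, with overlapping groups (0.37 ± 0.122, adjusted p = 0.0162, edgeR). The call at 5 h was lost without GFP line 5 h replicate 2 and without Nur77 line 5 h replicate 1. The call at 1 h was lost without GFP line 1 h replicate 2. The difference in the rise of Oas2, 0.63 ± 0.198, lost its call in 12 of 16 omissions, with an adjusted p of up to 0.12.

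The neighbouring genes Oasl1 and Oasl2, relatives of the synthases, of which Oasl1 is known in mouse to limit translation of Irf7, took another course. Oasl2 had 19.3, 16.1, 17.5 and 18.5 CPM in the Nur77 line, against 38.4, 31.8, 36.9 and 30.9 CPM in the GFP line at 5 h, with no overlap (-0.95 ± 0.148, adjusted p = 8.91e-06, edgeR). Oasl1 was higher in the Nur77 line at 0 h, with 4.47 to 5.16 CPM in the Nur77 line, against 2.36 to 2.94 CPM in the GFP line (0.78 ± 0.189, adjusted p = 0.00171, edgeR), and at 1 h, with 33.3 to 64 CPM in the Nur77 line, against 20.9 to 23.6 CPM in the GFP line (1.25 ± 0.121, adjusted p = 8.67e-09, edgeR). By 5 h its libraries held 310.3 to 341 CPM in the Nur77 line, against 309 to 338 CPM in the GFP line and overlapped (-0.01 ± 0.108, adjusted p = 0.942, edgeR). The difference in its rise over 5 h was -0.80 ± 0.218 (adjusted p = 0.0235, edgeR), with an adjusted p of 0.0542 without Nur77 line 0 h replicate 1.

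The Ifit proteins bind viral RNA that lacks the marks of a host cap. Ifit1 was lower in the Nur77 line at 5 h, with 62.1, 72.4, 70.7 and 70.2 CPM in the Nur77 line, against 86.6, 100, 92.2 and 84.3 CPM in the GFP line and no overlap (-0.40 ± 0.123, adjusted p = 0.00916, edgeR). Its rise was among the largest of the list, 6.48 ± 0.205 in the Nur77 line and 6.77 ± 0.195 in the GFP line. Ifit2 had 93.1, 93.1, 96.8 and 99.5 CPM in the Nur77 line, against 107, 116, 108 and 99.7 CPM in the GFP line at 5 h (-0.18 ± 0.0753, adjusted p = 0.0591, edgeR), which did not pass the test although the libraries did not overlap. At 0 h it was higher in the Nur77 line, with 29.5, 26.5, 26.6 and 32.5 CPM in the Nur77 line, against 18.4, 21.9, 21.6 and 20.6 CPM in the GFP line (0.47 ± 0.0835, adjusted p = 5.64e-05, edgeR). The rise of Ifit2 was smaller in the Nur77 line, by a difference of -0.65 ± 0.112 (adjusted p = 0.000391, edgeR). At 1 h Ifit2 had fallen in both lines, by 0.51 in the Nur77 line and by 0.26 in the GFP line on the log2 scale (adjusted p = 3e-05 and 0.0377, edgeR), and the call in the GFP line was lost in 5 of 8 omissions. Ifit3 was not called at any time, with 12.8 to 14.8 CPM in the Nur77 line, against 14.9 to 18.2 CPM in the GFP line at 5 h.

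Among the 6 nucleic acid sensors and kinases, 3 were higher in the Nur77 line at 5 h and 1 lower, against 22% of all genes higher and 24.4% lower. Eif2ak2, the kinase PKR that stops translation on binding double-stranded RNA, had 276, 256, 263 and 294 CPM in the Nur77 line, against 172, 169.5, 162 and 156 CPM in the GFP line at 5 h. These libraries did not overlap (0.72 ± 0.0823, adjusted p = 7.34e-08, edgeR). At 0 h its values were 66.2 to 75.4 CPM in the Nur77 line, against 63.9 to 72.3 CPM in the GFP line, and the difference in its rise was 0.68 ± 0.118 (adjusted p = 0.000402, edgeR). Adar, which edits adenosine in double-stranded RNA, had 257, 304, 311 and 288 CPM in the Nur77 line, against 218, 222, 207 and 207 CPM in the GFP line at 5 h (0.44 ± 0.0818, adjusted p = 8.5e-05, edgeR). Ddx58, the sensor RIG-I, had 258 to 305 CPM in the Nur77 line, against 179.7 to 209.5 CPM in the GFP line (0.58 ± 0.155, adjusted p = 0.00421, edgeR).

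Across the list, Oas1a, Oas2, Oas3, Usp18 and Parp10 were called lower in the Nur77 line at 1 h and higher at 5 h. Some of these calls, for Oas1a, Oas2 and Parp10, were lost when 1 library was left out. Ifih1, the sensor MDA5, alone was called in the opposite order. At 1 h it had 63.7 to 103 CPM in the Nur77 line, against 40.4 to 55.5 CPM in the GFP line (0.89 ± 0.108, adjusted p = 2.32e-07, edgeR). At 5 h it had 436 to 475 CPM in the Nur77 line, against 638 to 678 CPM in the GFP line (-0.51 ± 0.102, adjusted p = 0.000185, edgeR). The groups did not overlap at either time, and at 0 h the gene was not called (0.22 ± 0.117). Relative to 0 h, the change in the Nur77 line was larger at 1 h by 0.68 ± 0.159 (adjusted p = 0.0331, edgeR) and smaller at 5 h, by a difference of -0.73 ± 0.155 (adjusted p = 0.00324, edgeR). The call on the 1 h difference was lost in 9 of 16 omissions, with an adjusted p of up to 0.0929. Dhx58, the regulator LGP2, had 5.48, 9.49, 7.32 and 4.54 CPM in the Nur77 line, against 10.1, 10.7, 9.26 and 10 CPM in the GFP line at 0 h (-0.57 ± 0.146, adjusted p = 0.00285, edgeR), stayed lower at 1 h (-0.65 ± 0.15, adjusted p = 0.000881, edgeR), and was not called at 5 h, with 58.6 ± 4.27 CPM in the Nur77 line and 58.7 ± 4.49 CPM in the GFP line (SD, n = 4 each). Zbp1, a sensor of nucleic acids in the Z form, was not called between the lines and had 22.3 to 26.7 CPM in the Nur77 line, against 17.1 to 21.6 CPM in the GFP line at 5 h.

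The Ifi200 genes encode proteins that bind DNA in the nucleus and cytosol and have close relatives within the same cluster on chromosome 1, so the split of reads among them is uncertain. At 5 h Ifi204 had 149.6, 122, 126 and 125 CPM in the Nur77 line, against 93.4, 91, 94.4 and 89.8 CPM in the GFP line. The libraries did not overlap, but the test was not passed (0.51 ± 0.211, adjusted p = 0.0559, edgeR). Ifi203 had 334, 302, 300.4 and 339 CPM in the Nur77 line, against 256, 250.4, 243 and 248 CPM in the GFP line at 5 h, likewise without overlap and without a call (0.36 ± 0.303, adjusted p = 0.357, edgeR). The standard errors rest on a spread estimated over all 6 groups, so libraries at 1 h also enter the tests at 5 h. At 1 h replicate 2 of the Nur77 line had 244 CPM of Ifi203, against 51.4 to 77.9 CPM in the other 3 libraries of its group. For Ifi204 it had 77.7 CPM, against 24 to 35.2 CPM in the others. The Ifi203 fold change between the lines at 1 h, 0.89 ± 0.317 (adjusted p = 0.0248, edgeR), was 0.13 without that library, with an adjusted p of 0.332. At 0 h Ifi204 had 17, 17.6, 18.2 and 17.7 CPM in the Nur77 line, against 13.7, 14.9, 11.4 and 16.2 CPM in the GFP line and was not called (0.33 ± 0.25, adjusted p = 0.314, edgeR).

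Mx1 and Mx2, dynamin-like GTPases that block virus replication, were not called between the lines. At 5 h Mx2 had 25.4, 22.6, 19.6 and 21.5 CPM in the Nur77 line, against 19.6, 15.9, 18.6 and 17.5 CPM in the GFP line (0.32 ± 0.143, adjusted p = 0.0682, edgeR). Mx1 had 2.29, 2.31, 2.53 and 1.73 CPM in the Nur77 line, against 3.24, 2.76, 2.91 and 4.16 CPM in the GFP line (-0.53 ± 0.308, adjusted p = 0.164, edgeR). The libraries of the lines did not overlap in either gene, and the 2 differences had opposite signs. Before LPS, Mx1 held 0.161, 0.0688, 0.178 and 0.649 CPM in the Nur77 line, against 0.338, 0.205, 0.337 and 0.0452 CPM in the GFP line, which came from 16.5 counts summed over the 4 libraries of the Nur77 line and 16 counts over those of the GFP line. At this depth no difference between the lines was detectable at 0 h.

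Ifitm3, which hinders the fusion of viruses with endosomes, was lower in the Nur77 line at all 3 times and the gap narrowed. At 0 h it had 278, 274, 288 and 262 CPM in the Nur77 line, against 579, 577, 577 and 594 CPM in the GFP line (-1.08 ± 0.0828, adjusted p = 8.72e-11, edgeR). After 5 h it stood at 737, 764, 793 and 748 CPM in the Nur77 line, against 993, 1046, 1024 and 1012 CPM in the GFP line (-0.42 ± 0.0816, adjusted p = 0.000141, edgeR). The groups did not overlap at any time. Its rise was larger in the Nur77 line by 0.66 ± 0.116 (adjusted p = 0.000477, edgeR). Lgals9, a secreted galectin, had 18.4 to 19.9 CPM in the Nur77 line, against 37 to 43.1 CPM in the GFP line at 0 h (-1.07 ± 0.118, adjusted p = 6.27e-08, edgeR), and 77 to 88.5 CPM in the Nur77 line, against 76.9 to 82.3 CPM in the GFP line at 5 h (0.04 ± 0.107, adjusted p = 0.8, edgeR). The difference in its rise was 1.10 ± 0.159 (adjusted p = 4.41e-05, edgeR).

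Rtp4, a receptor chaperone, was among the most induced genes, with log2 fold changes of 6.55 ± 0.141 in the Nur77 line and 6.45 ± 0.132 in the GFP line. At 5 h it had 71.6, 66.4, 65.8 and 70.5 CPM in the Nur77 line, against 76.5, 87.1, 80.7 and 77.9 CPM in the GFP line (-0.23 ± 0.0843, adjusted p = 0.0266, edgeR), a call lost in 4 of 8 omissions, with an adjusted p of up to 0.0952. Bst2, which tethers budding virions to the cell surface, was lower in the Nur77 line at 1 h, with 18 to 33.4 CPM in the Nur77 line, against 31.6 to 35.9 CPM in the GFP line (-0.43 ± 0.116, adjusted p = 0.00322, edgeR), and was not called at 5 h (0.15 ± 0.109).

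Of the 5 nuclear body proteins and helicases, 3 were higher in the Nur77 line at 5 h and 0 lower, against 22% of all genes higher and 24.4% lower. Phf11d, a zinc finger protein, was higher at all 3 times. It had 19.7, 23, 20.4 and 18.9 CPM in the Nur77 line, against 9.46, 12.6, 10.6 and 11.7 CPM in the GFP line at 0 h (0.88 ± 0.0989, adjusted p = 7.95e-08, edgeR). After 5 h it reached 61.5, 54.8, 60.6 and 64.3 CPM in the Nur77 line, against 36.9, 32.9, 38.9 and 32.8 CPM in the GFP line (0.77 ± 0.0879, adjusted p = 8e-08, edgeR). The difference in its rise, not called, was -0.11 ± 0.132 (adjusted p = 0.672, edgeR). Sp100, a component of nuclear bodies, had 79.8, 73.7, 81.6 and 81.1 CPM in the Nur77 line, against 55.4, 50.4, 50.5 and 47.1 CPM in the GFP line at 5 h (0.64 ± 0.0866, adjusted p = 1.26e-06, edgeR).

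Sp100 held 18.7 to 23.2 CPM in the Nur77 line, against 18.7 to 22.4 CPM in the GFP line at 0 h, and the difference in its rise was 0.58 ± 0.129 (adjusted p = 0.00454, edgeR). Helz2, a helicase, had 221 to 284 CPM in the Nur77 line, against 142 to 169 CPM in the GFP line at 5 h (0.72 ± 0.112, adjusted p = 9.94e-06, edgeR). The difference in the rise of Helz2, 0.54 ± 0.166, lost its call in 13 of 16 omissions, with an adjusted p of up to 0.118. Daxx, the partner of Sp100 in nuclear bodies, and Znfx1, a helicase that binds viral RNA, were not called at any time, with 96.1 ± 3.11 CPM in the Nur77 line and 94 ± 2.8 CPM in the GFP line (SD, n = 4 each) for Daxx at 5 h.

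Of the 5 ADP-ribosyltransferase genes, Dtx3l included, 2 were higher in the Nur77 line at 5 h and 1 lower, against 22% and 24.4% of all genes, and the calls of Parp10 and Dtx3l were each lost in 6 of 8 omissions of 1 library. Parp12 was higher in the Nur77 line at 5 h, with 75.5, 76.5, 89.4 and 79.8 CPM in the Nur77 line, against 61.9, 70.6, 69.6 and 61.5 CPM in the GFP line (0.28 ± 0.0748, adjusted p = 0.00308, edgeR). Its levels at 0 h were 42.9, 43.1, 42.2 and 41.2 CPM in the Nur77 line, against 40.4, 42.7, 41.6 and 42 CPM in the GFP line, and they overlapped. Dtx3l, the ubiquitin ligase that pairs with Parp9, had 116, 118, 123 and 145 CPM in the Nur77 line, against 138, 153, 136 and 141 CPM in the GFP line at 5 h (-0.18 ± 0.0726, adjusted p = 0.0451, edgeR), with an adjusted p of up to 0.145 in the omissions. Parp9 was not called, with 164 ± 6.28 CPM in the Nur77 line and 162 ± 4.46 CPM in the GFP line (SD, n = 4 each) at 5 h. The annotated spans of Parp9 (chr16:35938470-35972621) and Dtx3l (chr16:35926515-35939027) overlap, and no strand setting is given, so reads in the overlap cannot be assigned with certainty. Parp10 was called lower in the Nur77 line at 1 h, a call lost in 3 omissions. It was called higher at 5 h (0.30 ± 0.122, adjusted p = 0.0499, edgeR), with an adjusted p of up to 0.158 in the omissions. Parp14 had the largest rise of the group, 4.40 ± 0.124 in the Nur77 line and 4.58 ± 0.125 in the GFP line, and was not called between the lines at 5 h.

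Ifi35 and Nmi, whose products bind each other, differed from each other in time. Ifi35 was higher in the Nur77 line at 5 h, with 32.6, 35.2, 35.4 and 35.5 CPM in the Nur77 line, against 24.6, 24.2, 23 and 20 CPM in the GFP line (0.59 ± 0.099, adjusted p = 2.5e-05, edgeR), and was not called at 0 h (0.14 ± 0.113). Nmi was higher at 0 h (0.37 ± 0.103, adjusted p = 0.00536, edgeR) and at 1 h (0.51 ± 0.103, adjusted p = 0.000236, edgeR), and at 5 h it had 25.7 to 29 CPM in the Nur77 line, against 23.3 to 26.6 CPM in the GFP line and was not called. Ifi44 was lower at 0 h, with 3.63, 5.09, 4.76 and 2.53 CPM in the Nur77 line, against 6.93, 7.93, 6.65 and 8.85 CPM in the GFP line (-0.92 ± 0.215, adjusted p = 0.00137, edgeR). At 5 h it had 148, 131, 144 and 158 CPM in the Nur77 line, against 118, 125, 124 and 112 CPM in the GFP line and did not pass the test, although the libraries did not overlap (0.28 ± 0.141, adjusted p = 0.114, edgeR). The difference in its rise was 1.20 ± 0.257 (adjusted p = 0.00399, edgeR). Xaf1 rose by 4.61 ± 0.183 in the Nur77 line and 4.70 ± 0.18 in the GFP line and had 42.7 ± 3.29 CPM in the Nur77 line and 41.3 ± 0.967 CPM in the GFP line (SD, n = 4 each) at 5 h. Tor3a, an ATPase of the endoplasmic reticulum, had 211 ± 6.69 CPM in the Nur77 line and 218 ± 8.72 CPM in the GFP line (SD, n = 4 each) at 5 h.

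At 1 h of LPS only part of the list had moved. In the Nur77 line 15 genes rose and 6 fell, against 22.5% of all genes higher and 21.8% lower. In the GFP line 7 rose and 2 fell, against 9.75% and 7.68%. The median log2 fold changes were 0.07 in the Nur77 line and 0.03 in the GFP line. The 7 genes that rose in both lines were Oasl1, Ifit1, Ifih1, Rsad2, Isg15, Rtp4 and Helz2, and each line's rise was measured against its own 0 h libraries. Isg15 rose by 3.49 ± 0.212 in the Nur77 line and 3.35 ± 0.203 in the GFP line, Oasl1 by 3.49 ± 0.144 and 3.03 ± 0.159, and Ifit1 by 3.16 ± 0.246 and 2.68 ± 0.245, in the same order of lines. Without replicate 2 of the Nur77 line at 1 h, 12 genes rose and 6 fell in that line.

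The change at 1 h differed between the lines for 1 gene, Ifih1, which was larger in the Nur77 line, and for 0 in the other direction, against 0.615% of all genes larger and 0.516% smaller. Without replicate 2 of the Nur77 line at 1 h, Oasl1 was also called larger (difference 0.63, adjusted p = 0.00224, edgeR) and Tor3a smaller (difference -0.30, adjusted p = 0.0447, edgeR). The same library moved calls between the lines at 1 h: without it 9 genes were higher and 13 lower, Ifit1 (0.54, adjusted p = 0.00161), Oasl2 (-1.07, adjusted p = 0.0344) and Ifi44 (-0.73, adjusted p = 0.00106) gained a call, and Ifi203, Ifit2 and Eif2ak2 lost theirs (all edgeR).

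Of the 7 genes called higher at 1 h in both lines, at 5 h 5 were lower in the Nur77 line (Ifit1, Ifih1, Rsad2, Isg15 and Rtp4) and 1 was higher (Helz2), with a median log2 fold change of -0.40, where 24.4% of all genes were lower and 22% higher. Of the 30 genes called higher at 1 h in neither line, 10 were higher at 5 h and 5 lower, with a median of 0.09. The remaining 8, called higher at 1 h in the Nur77 line alone, had 2 higher and 1 lower at 5 h, with a median of 0.10. These subsets were drawn after their values were seen, so the counts are a description without a test of the difference between them.

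The genes that make and relay interferon were read next to the list. None of the 13 interferon genes listed passed the filter on low counts. Ifnb1, the interferon beta gene, had 0, 12 and 20 counts summed over the 4 libraries of the Nur77 line at 0, 1 and 5 h, against 0, 9 and 10.5 counts in the GFP line. A count of 0 in a library allows up to 3 counts, so no fold is given, and the interferon alpha genes had at most 1 count in a group. Of the 10 receptor and Jak-Stat genes, 4 were higher and 5 lower in the Nur77 line at 5 h, against 22% of all genes higher and 24.4% lower. Both subunits of the interferon alpha and beta receptor were among the lower ones.

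Ifnar1 had 118, 123, 131 and 128 CPM in the Nur77 line, against 168, 169, 169.9 and 159 CPM in the GFP line at 5 h (-0.42 ± 0.0705, adjusted p = 2.75e-05, edgeR). Ifnar2 had 97.9, 92.3, 93.4 and 94.6 CPM in the Nur77 line, against 117, 121, 121 and 118 CPM in the GFP line (-0.34 ± 0.053, adjusted p = 9.64e-06, edgeR). Both had been higher in the Nur77 line at 0 h (0.24 ± 0.0708 and 0.19 ± 0.0531, adjusted p = 0.00934 and 0.00543, edgeR), and the differences in their change over 5 h were -0.65 ± 0.0999 and -0.53 ± 0.0751 (adjusted p = 9e-05 and 3.38e-05, edgeR). Tyk2, a kinase bound to Ifnar1, was lower at 5 h as well (-0.29 ± 0.0887, adjusted p = 0.0085, edgeR).

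Stat2 and Irf7 were among the transcription factors that were higher in the Nur77 line at 5 h. Stat2 had 121, 122, 123 and 128 CPM in the Nur77 line, against 102, 99.9, 95.1 and 94.8 CPM in the GFP line (0.33 ± 0.117, adjusted p = 0.0235, edgeR). Irf7, the factor that amplifies interferon genes, had 80.5, 81, 92.2 and 85.3 CPM in the Nur77 line, against 58.9, 57.9, 61.7 and 52.2 CPM in the GFP line (0.55 ± 0.131, adjusted p = 0.00125, edgeR). Irf9, the partner of Stat2, had 85 to 89.3 CPM in the Nur77 line, against 74.2 to 79.1 CPM in the GFP line. It was not called, although the libraries did not overlap (0.19 ± 0.15, adjusted p = 0.308, edgeR). The spread was estimated over all 6 groups, and at 1 h replicate 2 of the Nur77 line had 19.1 CPM of Irf9, against 6.46 to 9.94 CPM in the others. Irf3 was not called either (0.16 ± 0.105, adjusted p = 0.226, edgeR).

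At 1 and 5 h the Nur77 line held less Irf1, a factor that binds many of the same promoter elements. It had 109, 35.5, 98.2 and 98.5 CPM in the Nur77 line, against 219, 218, 239.8 and 238 CPM in the GFP line at 1 h (-1.42 ± 0.191, adjusted p = 3.28e-06, edgeR), where replicate 2 of the Nur77 line was the lowest. The 5 h libraries had 35.4, 33.4, 36.8 and 33.4 CPM in the Nur77 line, against 115, 124, 116 and 118 CPM in the GFP line (-1.77 ± 0.199, adjusted p = 2.57e-07, edgeR). Its change over 5 h differed by -2.17 ± 0.296 (adjusted p = 5.18e-05, edgeR). Of the 6 interferon regulatory factors on this list, 2 were higher at 5 h (Irf7 and Irf8) and 1 lower, against 22% and 24.4% of all genes.

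In the chain between Toll-like receptor 4 and Irf3, 1 of 8 genes was higher in the Nur77 line at 5 h and 3 lower, against 22% and 24.4% of all genes. Ticam2, the adaptor that brings the receptor to Ticam1, had 40, 38.9, 36.1 and 40.2 CPM in the Nur77 line, against 86.8, 97.2, 98.3 and 91.2 CPM in the GFP line (-1.27 ± 0.0879, adjusted p = 8.44e-12, edgeR). Tlr4 was lower (-0.53 ± 0.118, adjusted p = 0.000776, edgeR), as was Traf3 (-0.40 ± 0.0771, adjusted p = 0.000125, edgeR), while Ticam1 was higher (0.32 ± 0.083, adjusted p = 0.00242, edgeR). Traf3 lies on chromosome 12, whose 435 tested genes had a median log2 fold change of -0.45 at 5 h. The part of the chromosome's lower level in the value of Traf3 was not tested. Ikbke was higher before LPS, with 64.6 to 88.4 CPM in the Nur77 line, against 26.4 to 40.4 CPM in the GFP line at 0 h (1.26 ± 0.144, adjusted p = 2.01e-07, edgeR), and was not called at 5 h. Among 5 brakes of the pathway, 2 were higher at 5 h and 0 lower, and among 5 cytosolic adaptors 1 was higher and 0 lower, against the same 22% and 24.4%. The brakes called were Pias1, a SUMO ligase (0.26 ± 0.0718, adjusted p = 0.00469, edgeR), and Ptpn11, the phosphatase Shp2 (0.23 ± 0.0666, adjusted p = 0.00688, edgeR). The adaptor gene called was Mb21d1, the DNA sensor cGAS (0.56 ± 0.0714, adjusted p = 4.98e-07, edgeR). Tyk2, Tlr4, Traf3, Ticam1 and Ikbke were picked for mention after their values were seen.

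**Figure D5:**
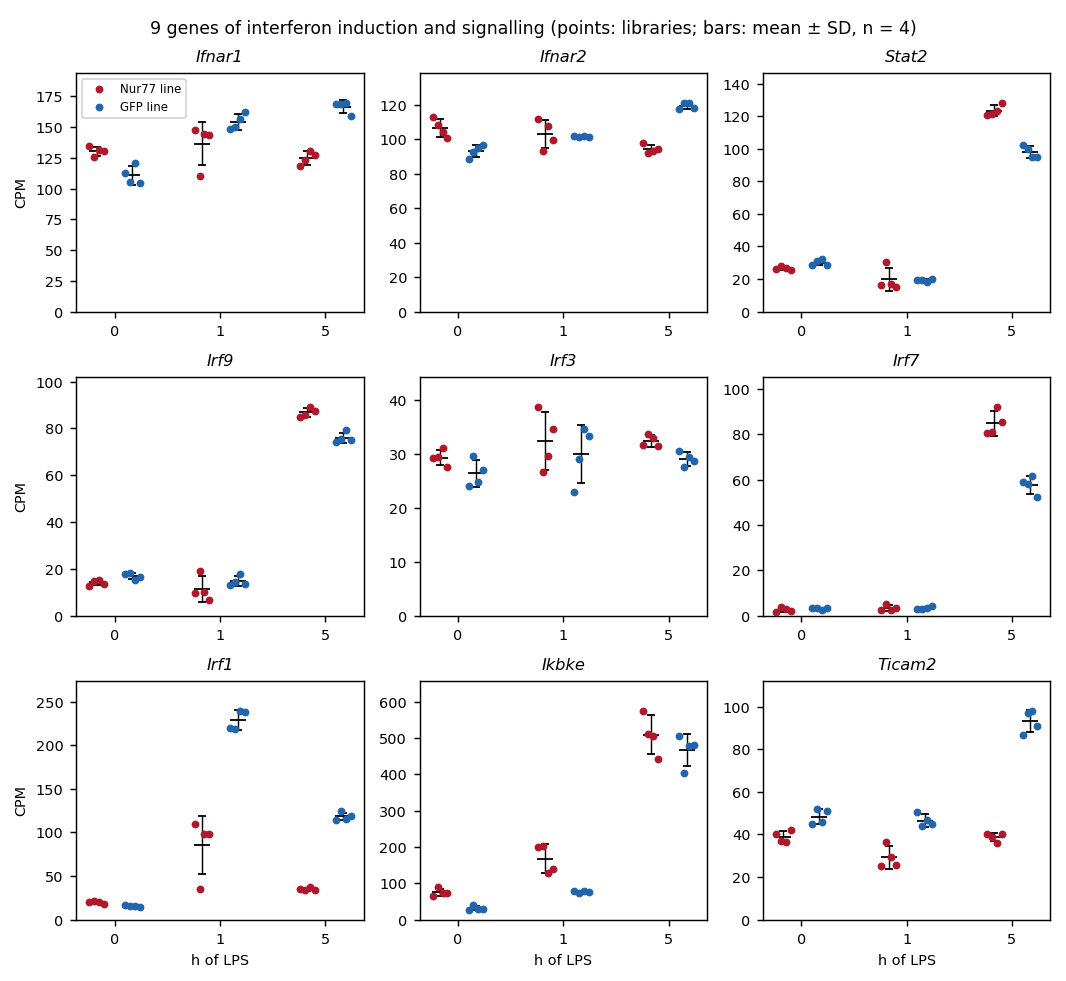
Points are libraries and bars are means ± SD (n = 4) of CPM at 0, 1 and 5 h of LPS, with the Nur77 line left of the GFP line at each time, for 9 genes of interferon induction and signalling on linear axes that start at 0. At 5 h Ifnar1, Ifnar2, Irf1 and Ticam2 are lower in the Nur77 line, and Stat2 and Irf7 are higher.

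Macrophage markers moved with the lines beside these results. At 5 h, 5 of the 8 tested markers were lower in the Nur77 line (Adgre1, Cd68, Lyz2, Mpeg1 and Fcgr1), 1 was higher (Ptprc) and 2 were not called, against 24.4% of all genes lower and 22% higher, with summed levels of 5467.0 to 5726.2 CPM in the Nur77 line, against 9120.5 to 9668.5 CPM in the GFP line. The remaining marker, Mertk, did not pass the filter on low counts. The 3 tested markers of other cell types were lower as well at 5 h, with log2 fold changes of -0.60 ± 0.239 for S100a8 (neutrophils), -1.19 ± 0.316 for Ccr9 and -0.38 ± 0.115 for Cox6a2 (both plasmacytoid dendritic cells). The other listed markers of these 2 cell types did not pass the filter. Ccr9 rose with LPS in both lines, from 0 to 35 summed counts in the Nur77 line and from 1 to 96.5 in the GFP line between 0 and 5 h. In cultures of a macrophage line these genes need not mark such cells. The part of the macrophage and other markers in the differences of the antiviral genes was not tested.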

How the data were processed

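Polyadenylated RNA of 24 RAW 264.7 libraries was sequenced, per the labels' protocols. The authors deposited 1 table of estimated counts per transcript, in steps of 0.5 and not normalized, with CASAVA 1.8.2, HISAT2 2.1.0 and mouse build mm10 named per the submitters' processing notes. How transcripts were counted, with which strand setting and annotation, is not given in the sources used here.

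Of 42361 transcripts, 42198 were named through RefSeq and 70 through GENCODE, and 93 kept their own identifier. For each of the 25160 genes the transcript of highest mean was used (19 of the 45 members had more than 1), and expected counts were rounded to whole numbers. Genes were filtered with filterByExpr by group, scaled by TMM (factors from 0.896 to 1.14) and fitted together over the 6 groups with edgeR 4.0.16 (R 4.3.3) by the quasi-likelihood test, with Benjamini-Hochberg adjustment over 12198 genes and a threshold of 0.05. Levels are TMM-scaled CPM, counts per 1000000. A standard error is the absolute log2 fold change over the root of the F statistic. The script was tested on simulated data. Library totals, from 8134143 to 29275847 counts, limit the precision at low levels.

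Same-numbered libraries were not paired in the labels. Alternatives were DESeq2 1.42.0, its size factors, other filters, the mean over transcripts, a fit of the compared groups alone, the omission of every library in turn and a replicate block. The members and lists were chosen with earlier results of these data known. In each role group every library's value is printed for the 2 genes with the smallest adjusted p between the lines at 5 h and the 1 with the smallest at 0 h. For pathway genes, values are given for Ifnb1, Ifnar1, Ifnar2, Stat2, Irf9, Irf7, Irf3, Nr4a1 and some called genes of these lists. Items withheld from this text are not reported here.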

Additional observations from a re-analysis of the deposited data

Results flagged for a closer look

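Within groups of 4 libraries, 8 of 150 groups over 25 members held a library far from the other 3 by Dixon's ratio, where chance gives about 1 in 20. Replicate 2 of the Nur77 line at 1 h accounted for 3 of the 8: Ifi203 had 244 CPM there against 51.4 to 77.9 in the others, Mx2 had 0.539 CPM against 0.0872 to 0.125, and Rsad2 had 8.75 CPM against 5.75 to 6.2. Herc6 had 13.5 CPM in replicate 4 of the same group, against 8.68 to 9.45 in the others. In replicate 1 of the GFP line at 1 h, Parp12 had 35.8 CPM against 41.6 to 42.3, and Phf11d had 13.2 CPM against 11.1 to 11.3. Ifitm3 had 594 CPM in replicate 4 of the GFP line at 0 h, against 577 to 579, and Ifi35 had 32.6 CPM in replicate 1 of the Nur77 line at 5 h, against 35.2 to 35.5.

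The response to LPS differed between the lines by the interaction test (edgeR quasi-likelihood, adjusted p under 0.05), as the log2 fold change in the Nur77 line minus that in the GFP line. At 1 h this held for Ifih1 (0.68). At 5 h the difference was positive for Usp18 (2.03), Ifi44 (1.20), Oas3 (1.16), Lgals9 (1.10), Oas1a (0.69), Eif2ak2 (0.68), Ifitm3 (0.66), Oas2 (0.63), Sp100 (0.58) and Helz2 (0.54). It was negative for Rsad2 (-1.85), Cmpk2 (-1.22), Oasl1 (-0.80), Ifih1 (-0.73), Ifit2 (-0.65) and Herc6 (-0.56).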

How the results depend on the processing

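Over 7039 alternative values of single genes, 6777 kept direction and side of the threshold, 184 lost their call, 78 gained one and 0 changed sign with a call. The counts at 5 h of LPS, 44 higher and 1 lower in each line, held under every alternative run. Between the lines at 5 h the counts ran from 11 to 18 higher and 8 to 15 lower. For the difference in the response at 5 h they ran from 8 to 15 and 4 to 6. A fit without the Nur77 line library that stood apart at 1 h gave 18 higher and 12 lower between the lines at 5 h. It gave 14 larger and 6 smaller responses at 5 h. In a fit of the compared groups alone, 7 genes were higher between the lines at 1 h in place of 11, 3 fell at 1 h in the Nur77 line in place of 6, and 0 responses were larger at 1 h in place of 1. That fit gave no value for 26 of 405 gene results, which did not pass its filter. With the replicate block, 1 gene fell at 1 h in the GFP line in place of 2, and 0 responses were larger at 1 h in place of 1; no other count moved by over 1.5 times. Same-numbered libraries had correlated deviations of -0.295 to 0.173 over 60 pairs (median -0.015), 8 of them over 0.1, and 3 of 24 libraries were closest to their own number. These values showed no clear pairing, and they cannot settle whether same-numbered libraries share a culture or a day. Leaving out 1 library at a time, the genes that fell at 1 h in the GFP line numbered 0 to 3, responses larger at 1 h 0 to 2, and responses smaller at 1 h 0 to 1. The cause of these changes was not tested.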
